A study of Homo sapiens with 6 samples.

Results

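The mRNA levels of 10 genes that are switched on by ERK signalling and, for the most part, restrain it were examined in HT1080 cells with and without stable overexpression of PGK1. The genes are the dual-specificity phosphatases DUSP4, DUSP5 and DUSP6, the Sprouty genes SPRY1, SPRY2 and SPRY4, the Sprouty-related genes SPRED1 and SPRED2, and the transcription factors ETV4 and ETV5. They were taken by gene symbol from a table of 21619 entries, and each symbol stood on a single entry. HT1080 is a human fibrosarcoma line that carries an activating mutation in NRAS. PolyA RNA was sequenced from 3 libraries labelled wild type (WT) and 3 libraries labelled as overexpressing the glycolytic enzyme phosphoglycerate kinase 1 (PGK1_OE). The control group carries no stated transgene, although the column names of its libraries differ from the label, so whether an empty vector is present is not known. Neither the vector and promoter behind PGK1 nor whether the cells are a clone or a pool is given in the sources used here, and nothing says whether the replicates were separate cultures. The spread behind every p-value is therefore that between the 3 libraries of a group, and it may be no more than technical.

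In the RAS-ERK pathway, growth factor receptors activate RAS, which acts through the kinases RAF and MEK on ERK. Active ERK enters the nucleus and, through transcription factors, raises a set of transcripts that serve as a readout of pathway output. Many of their products act back on the pathway: DUSP phosphatases remove the activating phosphates from ERK, Sprouty proteins interrupt signalling between receptor and RAF, and SPRED proteins bring the RAS inactivator neurofibromin to the membrane. ETV4 and ETV5 belong to the PEA3 group of ETS factors, whose genes are held down by the repressor Capicua until ERK relieves it.

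The libraries held 34425162 to 40538274 counts. PGK1 stood at 519 to 527 CPM (counts scaled to library size) in WT and at 12221 to 13340 CPM in PGK1_OE, as the labels say. The gene shares exon sequence with ATP7A and AL356235.1 on the same strand, so these values may include their reads. Of 14322 entries that passed the low-count filter, 71.2% were called at an adjusted p under 0.05 in edgeR, 35.4% upward and 35.8% downward, and in 76.4% the 3 libraries of a group did not overlap those of the other. Counts of called genes below are to be read against these shares. All 6 mesenchymal markers examined were expressed, with a mean above 1 FPKM, and their summed level was 3340 to 3823 CPM in WT and 5803 to 5928 CPM in PGK1_OE. VIM made up most of that difference (means of 1890 and 3569 CPM), FN1, LGALS1 and CD44 also rose, CDH2 fell from 153 to 105 CPM (log2 fold change -0.54, adjusted p = 3.56e-07 in edgeR) and S100A4 was not called. The 5 epithelial and 5 leukocyte markers all averaged under 1 FPKM, with EPCAM, GRHL2, PTPRC and CD14 at 0 counts in every library. The epithelial sum was 4.64 to 5.91 CPM in WT and 1.12 to 3.35 CPM in PGK1_OE. In it CDH1 (17, 28 and 16 counts in WT, 0 in each PGK1_OE library) and ESRP1 (94, 83 and 80 counts in WT, 6, 0 and 0 in PGK1_OE) were called downward (adjusted p = 0.000182 and 0.000711 in edgeR). Both passed the low-count filter through the WT libraries alone, so these calls are tied to that filter. The leukocyte sum was 1.22 to 1.77 CPM in WT and 1.56 to 2.60 CPM in PGK1_OE. Of 5 endothelial markers 4 averaged under 1 FPKM, and their sum was 4.30 to 5.78 CPM in WT and 10.4 to 13.5 CPM in PGK1_OE, with PECAM1 alone at means of 3.15 and 10.4 CPM. The part of these markers in the results below was not tested. In bulk libraries, fewer cells that express a gene and less of its RNA per cell cannot be told apart.

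The 10 genes did not move as a block. DUSP4 rose about 4-fold, DUSP5, SPRY2 and SPRY4 fell by 29.8% to 40.8%, and SPRED1, SPRED2 and ETV5 fell by 7.52% to 10.8%. ETV4 and DUSP6 were not called, and SPRY1 was too low to be tested. Thus 9 of the 10 passed the filter. Of these 1 was called upward and 6 downward, beside 35.4% upward and 35.8% downward of all entries tested. At least 2-fold changes were found for 1 of the 9, DUSP4, against 26.5% of all entries tested. Their median log2 fold change was -0.11, beside -0.02 for all entries tested. For 6 of the 9 the groups did not overlap, beside 76.4% of all entries tested. The count of called genes rests on small changes: without WT replicate 1 it was 4, with DUSP4, DUSP5, SPRY2 and SPRY4 called.

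**Figure D1:**
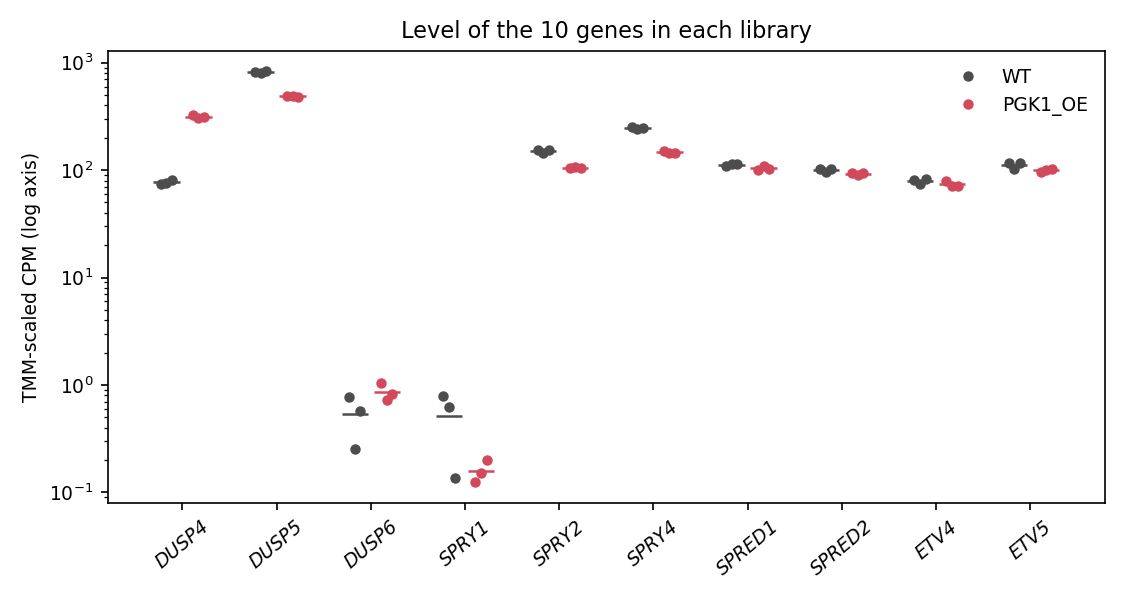
Level of the 10 genes in each of the 6 libraries, in TMM-scaled CPM, on a log axis. Points are libraries and bars are group means (3 libraries each). DUSP4 stands higher in PGK1_OE (304 to 328 CPM against 74.3 to 81.6), DUSP5, SPRY2 and SPRY4 stand lower, and DUSP6 and SPRY1 lie near or below 1 CPM throughout.

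Among the phosphatases, DUSP4 is a nuclear enzyme that acts on ERK and also on other MAP kinases. Its level was 74.3, 75.6 and 81.6 CPM in WT replicates 1, 2 and 3 and 328, 304 and 311 CPM in PGK1_OE replicates 1, 2 and 3. All 3 PGK1_OE libraries lay far above the WT libraries, a 4.07-fold difference of means (77.1 ± 3.89 and 314 ± 12.4 CPM, SD, n = 3). This is 2.03 on the log2 scale (SE 0.05, adjusted p = 3.18e-11 in edgeR), and the value lay between 1.91 and 2.08 under the 17 alternatives tried. In size it exceeded all but 6.72% of the entries tested. The gene (ENSG00000120875) lies on chromosome 8 from 29333064 to 29350668 on the minus strand of GRCh38 and overlaps no other annotated gene.

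DUSP5, a nuclear phosphatase with a strong preference for ERK, moved the other way. It stood at 826, 801 and 832 CPM in the WT libraries and at 493, 492 and 483 CPM in the PGK1_OE libraries. The 2 groups did not overlap, and the spread within each was about 2% of the mean or less (coefficient of variation 2.00% and 1.08%). The fall was 40.3%, with a log2 fold change of -0.74 (SE 0.03, edgeR adjusted p = 3.02e-09) and a range of -0.79 to -0.73 over the 17 alternatives. DUSP5 (ENSG00000138166, chromosome 10, 110497838 to 110511544, plus strand) overlaps no other annotated gene. It remained the most abundant of the 10 genes in both groups. On the deposited FPKM scale, which allows for gene length, it ranked at place 145 of all entries in WT and 287 in PGK1_OE.

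DUSP6, the cytoplasmic ERK phosphatase often used as a marker of ERK output, was barely present. Its raw counts were 29, 9 and 21 in WT and 42, 29 and 29 in PGK1_OE, which is 0.255 to 0.765 and 0.731 to 1.05 CPM. The groups overlapped, since WT replicate 1 lay above PGK1_OE replicate 2. The log2 fold change of 0.70 (SE 0.44) had a 95% interval of -0.27 to 1.68 and was not called (edgeR adjusted p = 0.177). It was called under none of the 14 alternatives in which the gene was tested. Over the summed counts, 100 in PGK1_OE and 59 in WT, the ratio was 1.62 with an exact 95% interval of 1.16 to 2.27 for counting error only, which leaves out the spread between libraries. An annotated transcript on the opposite strand, AC024909.2, shares exon sequence with DUSP6 (ENSG00000139318, chromosome 12, 89347232 to 89353271, minus strand), so a few of these reads may belong to it.

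Set side by side per unit of length, the sum of these 3 phosphatases was mostly DUSP5. Other MAP kinase phosphatases are not part of it. The summed FPKM of the 3 phosphatases was 328, 322 and 330 in WT and 238, 233 and 229 in PGK1_OE. All 3 PGK1_OE libraries thus had the lower sum. DUSP4 made up 3.86%, 4.05% and 4.19% of that sum in WT and 23.0%, 21.7% and 22.4% in PGK1_OE. The ratio of DUSP5 to DUSP4 was 23.8 ± 1.03 in WT and 3.47 ± 0.126 in PGK1_OE. DUSP6 contributed at most 0.111% in any library. An exact two-sided permutation test gave p = 0.1 for each of these 3 differences (the sum, the DUSP4 share and the ratio), the smallest value that 3 libraries against 3 allow.

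**Figure D2:**
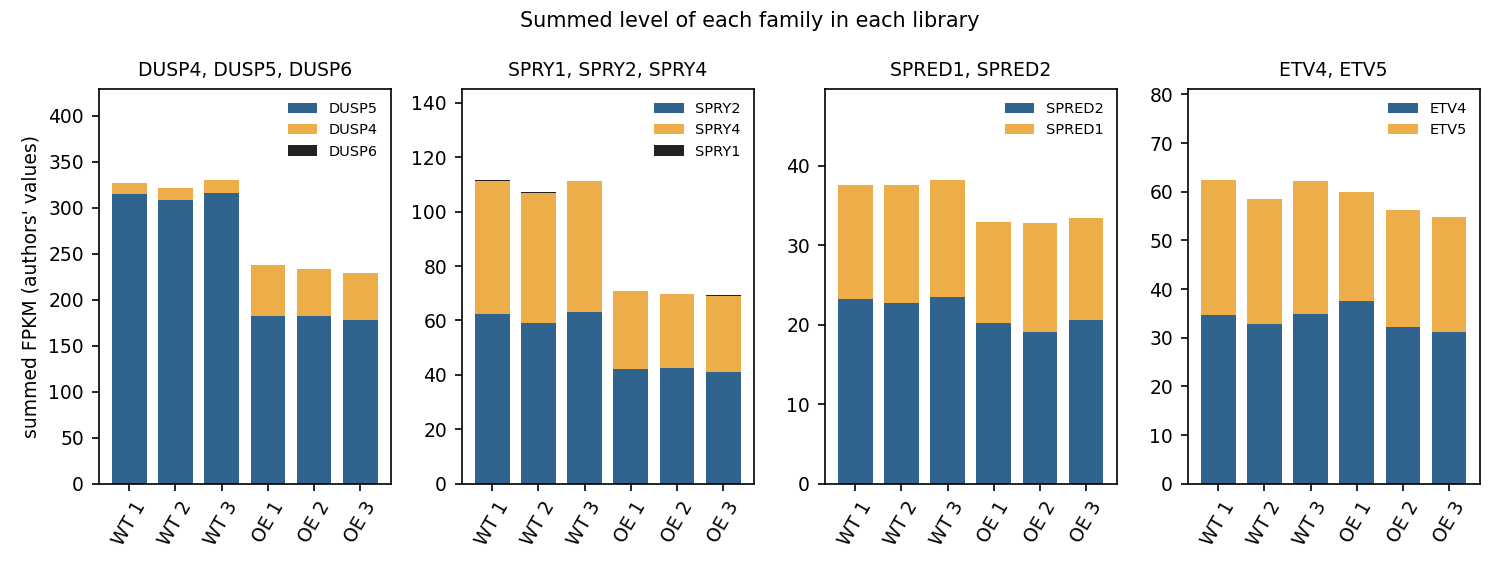
Summed FPKM of each family in each library, from the deposited FPKM values, with WT replicates 1 to 3 and PGK1_OE replicates 1 to 3 (OE) on the x axis and colours for the genes. The sum of DUSP4, DUSP5 and DUSP6 is lower in PGK1_OE while its DUSP4 part is larger. The Sprouty sum falls from 107 to 112 in WT to 69.2 to 71.0 in PGK1_OE, and the mean SPRY2 part of it is 56.0% in WT and 59.7% in PGK1_OE.

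SPRY2, an adaptor-binding inhibitor that acts below growth factor receptors, was at 153, 143 and 154 CPM in WT. In the PGK1_OE libraries it was at 105, 107 and 104 CPM, all below the WT values. The fall was 29.8% (log2 fold change -0.51, SE 0.04, edgeR adjusted p = 5.44e-07). SPRY2 (ENSG00000136158) occupies chromosome 13 from 80335976 to 80340951 on the minus strand.

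SPRY4, which restrains RAS and RAF activation by receptors, fell further. Its levels were 251, 244 and 246 CPM in WT. In PGK1_OE they were 151, 144 and 143 CPM, again with no overlap. This is a fall of 40.8%, close to that of DUSP5 (log2 fold change -0.76, SE 0.04, edgeR adjusted p = 7.52e-09). SPRY4 (ENSG00000187678, chromosome 5, 142310427 to 142326455, minus strand) overlaps the antisense gene SPRY4-AS1 outside its exons. The falls of SPRY2 and SPRY4 passed the threshold under all 17 alternatives, with ranges of -0.56 to -0.48 and -0.80 to -0.74.

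SPRY1, the third Sprouty gene examined, was almost absent. It had 30, 22 and 5 counts in WT and 5, 6 and 7 counts in PGK1_OE, so WT replicate 3 lay with the PGK1_OE libraries and apart from the rest of its group. It did not pass the low-count filter. Over the summed counts, 57 in WT and 18 in PGK1_OE, the ratio of WT to PGK1_OE was 3.31 with an exact 95% interval of 1.92 to 5.98 that covers counting error only. Without the filter the difference on the log2 scale was -1.69 (SE 0.73, adjusted p = 0.0657 in edgeR). The gene also entered the test when WT replicate 3 or any PGK1_OE library was left out, in each case through the high WT libraries. It was not called without PGK1_OE replicate 1, 2 or 3 (-1.54, -1.66 and -1.88, adjusted p = 0.115, 0.0937 and 0.0691). It was called without WT replicate 3, the WT library that overlapped PGK1_OE (-2.14, adjusted p = 0.00769), so the call rests on leaving out that library. The gene (ENSG00000164056) lies on chromosome 4 from 123396795 to 123403760 on the plus strand.

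The sequences before the start sites of the Sprouty genes are shown because SPRY2 and SPRY4 both fell while SPRY1 was barely detected. They come from RefSeq start sites on GRCh38.p14, and windows were searched for 6 of the 10 genes (DUSP6, SPRY1, SPRY2, SPRY4, SPRED1 and SPRED2). No window of DUSP4, DUSP5, ETV4 or ETV5 was searched, so their start sites are not described here. Windows of 300 bases, 250 before and 50 after each start, were searched on both strands for TGACG (the core of the cyclic AMP response element, and part of its full form TGACGTCA), for CCGGAAG (an ETS motif), for TGANTCA (AP-1) and for TGAATGAA or TGAATGGA (Capicua). TGACG occurs in 24.6% of all 35116 such windows, CCGGAAG in 10.3%, TGANTCA in 7.71% and the Capicua motif in 2.63%. A match describes the letters and does not show that a factor binds. Whether a match has any part in the falls of SPRY2 and SPRY4 was not tested. In the lines below capitals mark TGACG, the first nucleotide of which lies 190 bases before the SPRY2 start and 68 bases before the SPRY4 start, with 12 bases on either side. The 250 bases before this SPRY4 start lie inside the annotated gene, and 170 of them are in its own exons. The SPRY2 stretch is chr13:80341300-80341328 and the SPRY4 stretch is chr5:142324299-142324327, both on the minus strand and written 5′ to 3′.
SPRY2: ctcggatccacaTGACGccatttactgct
SPRY4: tcttcggagccgTGACGgactgaattccc

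For the first of the listed SPRY2 and SPRY1 starts, the 250 bases before the start lie outside annotated exons of the gene and are given whole. The SPRY2 stretch is chr13:80341127-80341376 (minus strand) with 70.4% G or C and 23 CpG dinucleotides. The SPRY1 stretch is chr4:123396545-123396794 (plus strand) with 45.6% G or C and 8 CpG dinucleotides, and its window held none of the motifs searched. The window at the second SPRY1 start held 1 CCGGAAG. Of the other windows, that at the first SPRED2 start held TGACG after the start, that at the second SPRED2 start held 2 TGANTCA matches, and those of DUSP6, SPRED1 and the later SPRY2 starts held none of these motifs. All 250 bases before the DUSP6 start, the SPRED1 start and the second SPRY1 start lie in annotated exons of the gene itself.
SPRY2 upstream: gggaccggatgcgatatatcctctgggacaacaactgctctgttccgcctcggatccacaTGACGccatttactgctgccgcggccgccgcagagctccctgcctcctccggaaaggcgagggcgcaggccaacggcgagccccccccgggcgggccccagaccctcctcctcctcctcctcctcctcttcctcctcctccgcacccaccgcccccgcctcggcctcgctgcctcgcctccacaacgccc
SPRY1 upstream: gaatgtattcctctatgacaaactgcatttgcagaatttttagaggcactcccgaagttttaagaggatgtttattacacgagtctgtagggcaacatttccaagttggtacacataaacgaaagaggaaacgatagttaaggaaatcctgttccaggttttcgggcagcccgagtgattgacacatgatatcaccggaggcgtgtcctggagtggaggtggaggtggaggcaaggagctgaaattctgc

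Across the Sprouty genes the summed FPKM was 112, 107 and 111 in WT and 71.0, 69.7 and 69.2 in PGK1_OE. SPRY2 made up 56.0% ± 0.717 of it in WT and 59.7% ± 0.974 in PGK1_OE, and the ratio of SPRY2 to SPRY4 went from 1.28 ± 0.0346 to 1.49 ± 0.0608 (n = 3 each). The exact permutation p was 0.1 for the sum, the share and the ratio, the smallest the design allows. SPRY4 thus lost somewhat more of its level than SPRY2, and the libraries of the 2 groups did not overlap in the ratio. SPRY1 contributed at most 0.256% of the sum.

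The SPRED genes hardly moved. SPRED1, a partner of neurofibromin, stood at 110, 114 and 113 CPM in WT and 101, 109 and 102 CPM in PGK1_OE. Every PGK1_OE library lay below every WT library, by little. The difference was -0.11 on the log2 scale (SE 0.04, adjusted p = 0.0327 in edgeR). Leaving out any of WT replicates 1, 2 and 3 ended the call (adjusted p = 0.0550, 0.0783 and 0.104), as did leaving out PGK1_OE replicate 1 or 3 (0.127 and 0.118).

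SPRED2, its close relative, stood at 103, 95.3 and 102 CPM in WT and 93.3, 89.5 and 94.5 CPM in PGK1_OE. Here too the groups did not overlap, although WT replicate 2 and PGK1_OE replicate 3 were nearly equal. The difference was -0.11 on the log2 scale (SE 0.05, adjusted p = 0.0448 in edgeR). It was not called with DESeq2 (adjusted p = 0.0598), without the low-count filter (0.0623), without WT replicate 1 or 3 (0.179 and 0.148) or without PGK1_OE replicate 1, 2 or 3 (0.0719, 0.146 and 0.0502). Both SPRED calls are thus at the edge of what these libraries resolve. Over the 17 alternatives the log2 fold change ran from -0.16 to -0.09 for SPRED1 and from -0.21 to -0.09 for SPRED2. The summed SPRED FPKM was 37.8 ± 0.360 in WT and 33.0 ± 0.282 in PGK1_OE (exact permutation p = 0.1, the smallest the design allows). SPRED2 supplied 61.2% ± 0.851 of the summed SPRED FPKM in WT and 60.3% ± 1.83 in PGK1_OE (exact permutation p = 0.5), a difference within the spread between libraries. SPRED1 (ENSG00000166068) lies on chromosome 15 from 38252326 to 38357249 on the plus strand, and SPRED2 (ENSG00000198369) on chromosome 2 from 65310851 to 65432637 on the minus strand.

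ETV4 and ETV5, 2 of the PEA3-group activators, were present at similar levels in both groups of libraries. Another PEA3 gene, ETV1, rose and is given below with the other ETS factors. ETV4 stood at 81.2, 74.1 and 83.5 CPM in WT and 78.7, 71.6 and 70.6 CPM in PGK1_OE. The groups overlapped, because PGK1_OE replicate 1 lay above WT replicate 2. The log2 fold change of -0.11 (SE 0.06, 95% interval -0.24 to 0.02) was not called (edgeR adjusted p = 0.110). It passed when either of those 2 libraries was left out (adjusted p = 0.0346 without PGK1_OE replicate 1 and 0.0316 without WT replicate 2). Scaling by library totals alone also gave a call (0.0282).

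ETV5 stood at 117, 102 and 117 CPM in WT and 96.5, 101 and 102 CPM in PGK1_OE. WT replicate 2 fell within the PGK1_OE range, so the groups overlapped. The fall of 10.8% was called (log2 fold change -0.16, SE 0.06, edgeR adjusted p = 0.0215). It was not called without WT replicate 1 or 3 (adjusted p = 0.108 and 0.108) or without PGK1_OE replicate 1 (0.0804). ETV4 (ENSG00000175832, chromosome 17, 43527844 to 43579620, minus strand) shares exon sequence with DHX8 on the opposite strand. ETV5 (ENSG00000244405, chromosome 3, 186046308 to 186110318, minus strand) shares exon sequence with DGKG on the same strand. Both values may therefore include reads of the neighbour.

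On the FPKM scale ETV4 read differently. Its deposited FPKM values were 34.6, 32.8 and 34.9 in WT and 37.5, 32.2 and 31.3 in PGK1_OE, so PGK1_OE replicate 1 was the highest of the 6 libraries although its CPM was not. The length that links the counts to the FPKM values was 2.32 to 2.41 kb for ETV4 in WT and 2.07 to 2.22 kb in PGK1_OE, a change in the mean of -8.82%. For SPRED2 the change was 3.98%, and for the other 8 genes it lay between -1.62% and 0.876%. The length behind the authors' FPKM thus varied between libraries for ETV4, and the fold changes and tests above rest on counts. The summed FPKM of ETV4 and ETV5 was 61.0 ± 2.22 in WT and 56.9 ± 2.69 in PGK1_OE (exact permutation p = 0.2). ETV4 made up 55.9% ± 0.355 of it in WT and 59.0% ± 3.05 in PGK1_OE, where replicate 1 stood at 62.5% and the others at 57.4% and 57.1%. The difference of 3.09 percentage points was 1.33 without PGK1_OE replicate 1 and 0.836 on TMM-scaled CPM.

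**Figure D3:**
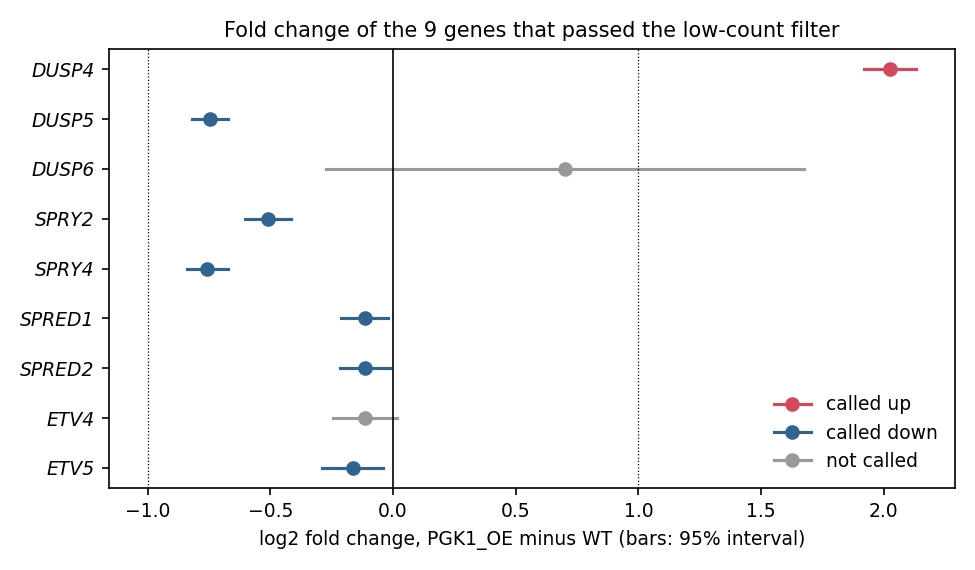
Log2 fold change (PGK1_OE minus WT) of the 9 genes that passed the low-count filter, with 95% intervals from edgeR and dotted lines at 2-fold. DUSP4 lies at 2.03, DUSP5, SPRY2 and SPRY4 lie between -0.76 and -0.51, SPRED1, SPRED2, ETV4 and ETV5 lie between -0.16 and -0.11, and the interval of DUSP6 runs from -0.27 to 1.68.

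The order of the 10 genes by FPKM differed between the groups mainly through DUSP4. In WT it ran DUSP5 (313 ± 3.86), SPRY2 (61.6 ± 2.10), SPRY4 (48.2 ± 0.560), ETV4 (34.1 ± 1.13), ETV5 (26.9 ± 1.12), SPRED2 (23.1 ± 0.424), SPRED1 (14.6 ± 0.322) and DUSP4 (13.2 ± 0.612). SPRY1 (0.192 ± 0.129) and DUSP6 (0.137 ± 0.0658) stood last, and these were the only neighbours in the WT order whose libraries overlapped. In PGK1_OE DUSP4 (52.2 ± 2.12) stood second after DUSP5 (181 ± 2.85), ahead of SPRY2 (41.8 ± 0.742). ETV4 (33.7 ± 3.35) followed ahead of SPRY4 (28.1 ± 0.864), where the order in WT was the reverse. No neighbours in the PGK1_OE order overlapped.

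The rest of the pathway was described with 8 further lists holding 87 genes, of which 77 were tested, 31 rose, 33 fell and 13 were not called. The share called, 83.1%, stands beside 71.2% of all entries. Of the other MAP kinase phosphatases 5 of 7 were tested, and 4 fell and 1 rose, with a median log2 fold change of -1.61. DUSP1, the immediate early phosphatase of JNK, p38 and ERK, fell from 83.6 ± 3.38 to 19.4 ± 1.31 CPM (-2.11, SE 0.06, edgeR adjusted p = 1.58e-10). DUSP8, which prefers JNK and p38, fell from 26.8 ± 1.81 to 2.04 ± 0.468 CPM (-3.71, SE 0.16), and DUSP16 (-1.61), a JNK phosphatase, fell as well. DUSP10 (-1.25), which also prefers JNK and p38, fell too. DUSP7 (0.99, SE 0.06), an ERK-directed phosphatase, was the gene of this list that rose. DUSP10 and DUSP7 were named after their values were seen. Of the 10 phosphatases of this kind across both lists, DUSP4 and DUSP7 were the ones called upward, while DUSP2 and DUSP9 were too low to test.

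Other transcripts that ERK induces fell in 6 of 10 cases and rose in 3 (median -0.49). MYC fell from 418 ± 4.99 to 33.3 ± 1.54 CPM (-3.65, SE 0.05, edgeR adjusted p = 3.85e-13), and PHLDA1, a pleckstrin-homology protein, fell (-0.62). CCND1, the G1 cyclin D1, rose from 518 ± 26.0 to 1175 ± 43.3 CPM (1.18, SE 0.04, edgeR adjusted p = 7.61e-10). Among other ETS factors 5 of 11 tested genes rose and 5 fell (median -0.02). ETS1, an ERK-phosphorylated activator, fell from 1043 ± 26.1 to 260 ± 6.64 CPM (-2.01, SE 0.04), and ETS2 (-1.61) and the serum-response cofactor ELK3 (-0.73) fell too. ETV1, a PEA3 gene like ETV4 and ETV5, rose from 9.41 ± 0.337 to 26.0 ± 1.77 CPM (1.47, SE 0.09, edgeR adjusted p = 3.2e-08). It was named after its values were seen. In the Capicua complex, which represses ETV4, ETV5 and other genes of the 10, CIC rose (0.50, SE 0.04), while its partners ATXN1 (-0.67) and ATXN1L (-0.19) fell. The ATXN1L call was lost without WT replicate 1 (edgeR adjusted p = 0.0503).

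Upstream, the adaptors, RAS, RAF, MEK and ERK genes rose in 10 of 17 cases and fell in 5 (median 0.29), and none changed 2-fold. MAP2K1, which encodes MEK1, rose by 0.89 (SE 0.04), while BRAF fell (-0.79, SE 0.05). Of 12 other inhibitors of the pathway 5 rose and 4 fell (median 0.03). RASAL2 (-1.41) and RASA1 (-0.72), which inactivate RAS, fell, and IL17RD, an inhibitor of fibroblast growth factor signalling, rose from a mean of 19.4 to 44.5 CPM. Of 9 tested receptor tyrosine kinases 3 rose and 3 fell (median -0.06), with EGFR (-1.39), AXL (-0.84) and MET (-0.60) lower. Of 10 tested growth factor ligands 3 rose and 4 fell (median -0.17), and HBEGF (-1.73), FGF2 (-1.79) and FGF1 (-0.72) were lower. The 4 falls held in number under every alternative, but only 1 ligand rose with the replicate block and without WT replicate 1, PGK1_OE replicate 2 or PGK1_OE replicate 3. ATXN1L, AXL, BRAF, CCND1, EGFR, ELK3, FGF2, MAP2K1, PHLDA1, RASA1 and RASAL2 share exon sequence with another annotated gene, so their values may include its reads. These counts describe each list and are not evidence that the list stands apart from other genes.

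**Figure D4:**
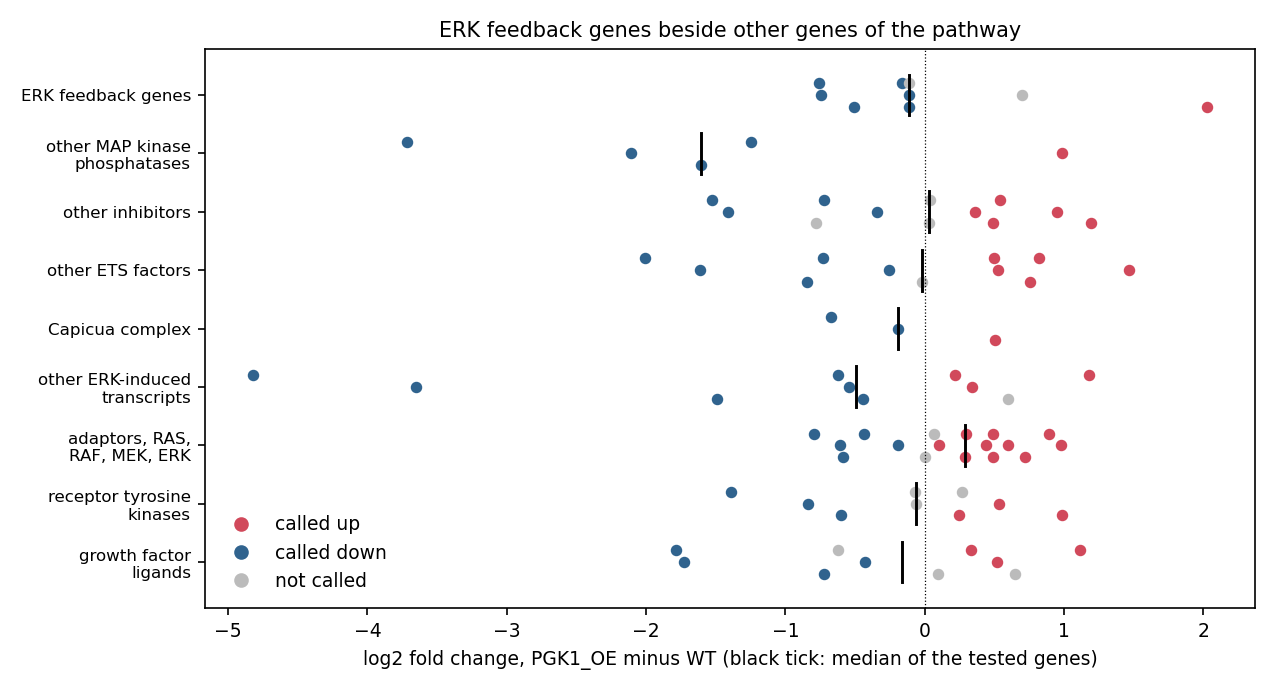
Log2 fold change (PGK1_OE minus WT) of each tested gene in the ERK feedback set and in 8 other lists of the pathway, with red for called upward, blue for called downward, grey for not called and a black tick at the median of the tested genes. The median is -0.11 for the ERK feedback genes, -1.61 for the other MAP kinase phosphatases and 0.29 for the adaptors and kinases of the cascade.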

How the data were processed

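PolyA RNA-seq of 3 WT and 3 PGK1_OE libraries was analysed, grouped by sample title, with columns matched through the sample descriptions. The submitters' processing notes name fastp, HISAT and the build hg38. No read counter, strand setting or annotation is given in the sources used here. Whole-number read counts for each gene were deposited by the authors. A second deposited table, of FPKM, holds the authors' length- and depth-normalised values. Counts were tested with edgeR 4.0.16 in R 4.3.3: filterByExpr by group, TMM scaling, robust quasi-likelihood test with group as the only term, two-sided, with Benjamini-Hochberg adjustment over 14322 entries. CPM uses TMM-scaled library sizes, and each SE is the log2 difference over the root of its F statistic. The steps were tested on simulated counts in which few entries changed, so that test does not cover scaling where most entries are called. Library pairs within a group differed beyond what sampling gives (chi-square over its degrees of freedom, 7.67 to 14.6). The sample titles name no batch. A symbol on several entries was read from the entry with most counts. The genes and lists were chosen with earlier results of these data known. Named genes are the 10 members, PGK1 and up to 3 genes per list with the smallest adjusted p, of which 1 is not reported here. GENCODE 29 (GRCh38, that is hg38) gave gene positions and overlaps. Alternatives were RLE factors, library totals, PGK1 left out of scaling, no filter, at least 1 CPM in 3 libraries, DESeq2 1.42.0, limma-voom (limma 3.58.1), limma on log2(FPKM + 1) or log2(FPKM + 0.1) with at least 1 FPKM in 3 libraries, log2(FPKM + 1) with no filter, the replicate number as a block, and each library left out. Family shares used FPKM, with TMM-scaled CPM as the alternative.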

Additional observations from a re-analysis of the deposited data

How the results depend on the processing

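DUSP4, DUSP5, SPRY2 and SPRY4 kept their direction and their call under all 17 alternatives. The number of the 10 genes called was 7. It was 8 with library totals, 6 with DESeq2, 6 with no low-count filter on counts and 7 under the other changes of method. When each library was left out it was 4 to 7, with 4 without WT replicate 1. Calls of SPRED1, SPRED2, ETV4 and ETV5 depended on single libraries as given with each gene, and none of them changed sign. Fewer samples enter those fits, and no other cause was tested. With log2(FPKM + 1) and no filter DUSP6 was 0.10, since the added 1 shrinks the differences of genes at low FPKM. For 27 other genes examined singly, 458 of 459 values under alternatives kept direction and call. The ligand list had 4 falls throughout, but its 3 rises became 1 with the replicate block, with log2(FPKM + 1) or log2(FPKM + 0.1) and without WT replicate 1, PGK1_OE replicate 2 or PGK1_OE replicate 3, and 0 (4 calls in place of 7) on log2(FPKM + 1) with no filter. The DUSP4 share of its family was higher in PGK1_OE by 18.3 percentage points on FPKM and by 30.5 on TMM-scaled CPM, which lacks the length correction. The ETV4 share was higher by 3.09 points on FPKM, by 0.836 on CPM, and by 1.33 to 4.04 when each library was left out. The SPRED1 share was higher by 0.903 points, but was -0.0514 on CPM, and -0.153 to 1.501 when each library was left out. The replicate numbers did not pair the libraries: same-numbered libraries correlated in their deviations from the group means with r = 0.00468, -0.00500 and 0.119, and 2 of 6 libraries correlated best with their own number. With the replicate block 7 of the 10 genes and 9943 entries were called, against 10195 without it. Depth limits DUSP6 and SPRY1, which had at most 42 counts in any library.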
